A study of Mus musculus with 8 samples.

Results

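The comparison described here is JQ1 against DMSO in Eμ-Myc lymphoma line 1.2. It rests on the 4 of 8 libraries whose labels name this line, 2 from cells given 250 nM JQ1 and 2 from cells given the DMSO vehicle, each for 2 h. All genes that passed an expression filter were tested, 12413 of the 43629 in the count table, and the response was estimated in line 1.2 itself and not as an average with line 1.1. The study as a whole treated 2 such lines in the same way, and made RNA-seq libraries with a TruSeq RNA kit. Both groups are early passage cells of a single Eμ-Myc lymphoma line of the C57BL/6 strain, so treated and control cells share the transgene and the values describe 1 line. The labels do not state that the 2 libraries of a group came from separate cultures, and a p-value here weighs a change only against the scatter of these libraries, part or all of which may be technical.

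Eμ-Myc mice express Myc, a transcription factor that drives cell growth, from a transgene driven by the Eμ enhancer, which normally serves immunoglobulin heavy chain transcription, and they develop lymphomas of the B lineage. JQ1 occupies the bromodomains of the BET proteins, a family that includes BRD2 and BRD3, which bind acetylated histones and help RNA polymerase II to leave its paused state, and so displaces them from chromatin. Genes next to large enhancers, many of which define the identity of a cell type, are known to be sensitive to BET inhibitors. By its title the study is concerned with PD-L1, a ligand encoded by Cd274 that inhibits T cells. The comparison addresses which genes change soon after BET inhibition.

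The 4 libraries of line 1.2 held between 10929783 and 11811310 reads in genes. Levels are CPM, reads of a gene relative to all gene reads of its library after TMM scaling, and 3 reads, taken as the floor of detection, correspond to between 0.248 and 0.271 CPM. The cells carried the markers of their label, since all 12 B lineage markers passed the filter. No NK cell marker (of 10) and no erythroid marker (of 8) passed, and the summed level of the T cell list was at most 16.7 CPM and that of the myeloid list at most 17.4 CPM. Cd3e and Trac of T cells, Ncr1 of NK cells, Lyz2 and Adgre1 of myeloid cells, Hba-a1 of erythroid cells and Col1a1 and Acta2 of stromal cells had 0 reads in the 4 libraries. The stromal and endothelial list was not low in sum, at 416.7 and 388.1 CPM in DMSO and 344.7 and 344.2 CPM in JQ1. Its members Vim and Pecam1 were at 328.8 and 299 CPM and at 86.2 and 87.4 CPM in DMSO. The libraries differed in Gm42418, a noncoding RNA gene on chromosome 17 (39846958 to 39848788), which was at 383 and 341 CPM in DMSO and at 1296 and 2644 CPM in JQ1, while in line 1.1 the highest value, 977 CPM, was in a DMSO library. When its level entered the fit as a covariate, 1383 genes were higher and 1525 lower after JQ1. Of the 6136 calls described next, 2649 were kept with the same sign. In line 1.2 this level goes with the treatment, so the covariate takes up part of the JQ1 contrast and widens its error. The standard error of the Bcl2 log2 change, for example, went from 0.059 to 0.153. A call lost in that fit therefore cannot tell a shared effect from lower precision. What moves Gm42418 with the treatment was not tested.

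After TMM scaling, about as many genes were higher as lower 2 h after JQ1, and the median fall was larger than the median rise. TMM holds the bulk of genes near no change, so this balance follows in part from the scaling. With library totals as scaling, 2559 genes were higher and 3581 lower. Of 12413 genes, 6136 (49.4%) passed an adjusted p of 0.05 in edgeR's quasi-likelihood test. Of these 3031 (24.4%) were higher and 3105 (25%) were lower. Both JQ1 libraries lay above both DMSO libraries for 4614 genes (37.2%) and below them for 4715 (38%). Most changes were small, with a median log2 change of 0.39 among the genes that rose and -0.52 among those that fell. At least 2-fold, 430 genes rose and 713 fell, and at least 8-fold 38 rose and 40 fell. The balance depended on level. Of the 833 genes under 1 CPM in DMSO, 24.2% rose and 3.72% fell at least 2-fold, and such genes could pass the filter through their JQ1 level. Of the 4612 genes at 20 to 100 CPM in DMSO, 0.759% rose and 2.84% fell at least 2-fold. For the 9393 genes of at least 5 CPM, the median absolute log2 difference was 0.067 between the 2 DMSO libraries and 0.066 between the 2 JQ1 libraries, against 0.22 to 0.23 between a JQ1 and a DMSO library. Genes that fell at least 2-fold held 1.52 and 1.53% of reads in DMSO and 0.548 and 0.524% in JQ1. Those that rose at least 2-fold held 0.578 and 0.685% in DMSO and 1.59 and 1.80% in JQ1. Because values are relative to each library's total, a change in RNA per cell would not show, and in bulk RNA fewer cells of a type and less RNA per cell cannot be told apart.

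**Figure D1:**
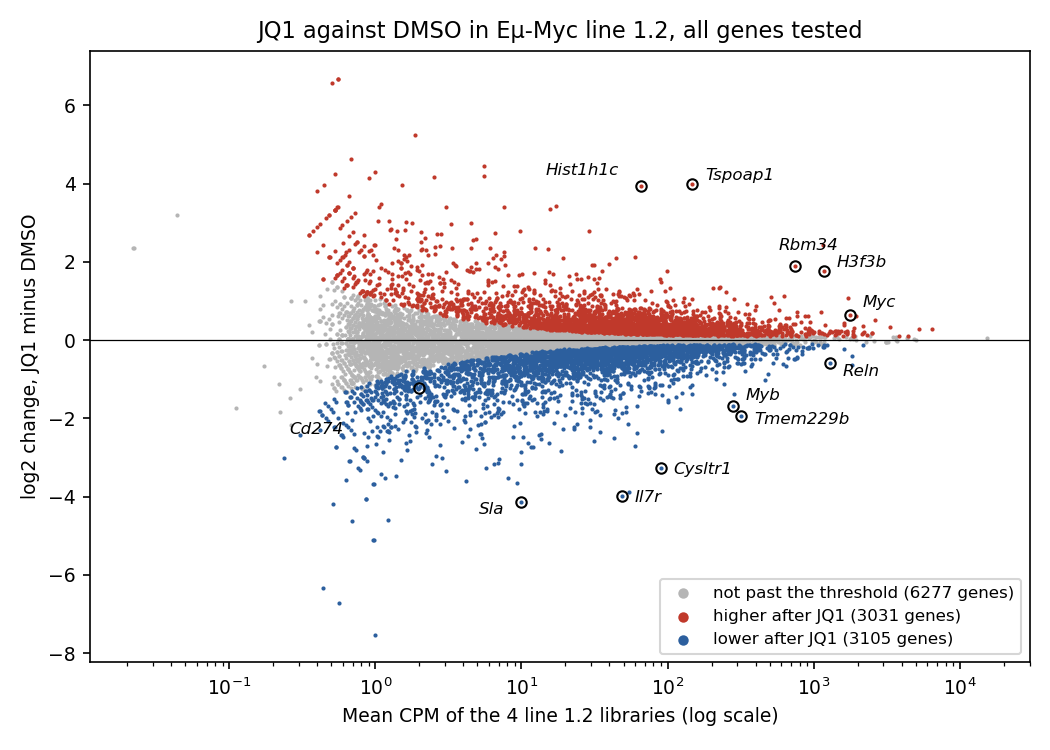
Each point is a gene, placed by its mean CPM over the 4 line 1.2 libraries (log axis) and its log2 change between JQ1 and DMSO. Red points (3031) were higher and blue points (3105) lower at an adjusted p under 0.05, and Tspoap1, Hist1h1c, Il7r and Cysltr1 stand far from 0 although their means are well above the low end of the axis.

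Among the largest rises were a gene for a partner of a mitochondrial membrane protein and several histone genes. Tspoap1, which encodes a protein that binds the mitochondrial translocator TSPO (chromosome 11, 87760541 to 87785928, GRCm38), was at 16.3 and 18.6 CPM in DMSO and 292 and 265 CPM in JQ1. The 2 groups were far apart and each pair of libraries was close, giving a log2 change of 3.99 ± 0.075 (SE, adjusted p = 4.82e-22). Hist1h1c, a linker histone gene, was at 8.57 and 7.54 CPM in DMSO and 134 and 114 CPM in JQ1, a log2 change of 3.95 ± 0.11. From here on, a number in parentheses after a gene is its log2 change, with ± its SE. Of the core histone genes for H2B, Hist1h2bc changed by 3.43 and Hist1h2bl by 3.40. Fzd5, a WNT receptor gene, was at 3.07 and 1.90 CPM in DMSO and 15.8 and 18.3 CPM in JQ1 and Cnnm4, a magnesium transporter gene, at 6.14 and 8.61 CPM in DMSO and 52.1 and 49.9 CPM in JQ1, log2 changes of 2.79 and 2.78. The other genes with the largest rises were the inducible heat shock gene Hspa1b (2.36), Ccnyl1, a cyclin Y relative (2.35), Pdlim7, a cytoskeletal scaffold gene (2.32), the autophagy gene Trp53inp2 (2.26), the calcium-dependent kinase gene Camk4 (2.17), Pgam2, the muscle form of phosphoglycerate mutase (2.15), and Slc25a18, a mitochondrial carrier gene (2.73). Slc25a18 overlaps Atp6v1e1 on the other strand, and reads of such pairs cannot be told apart without the strand setting of the counting, which is not given in the sources used here. The same holds for Atf5, Bak1, Ccnd1, Ccnyl1, Cd72, Dkc1, E2f5, Erap1, Gnl3, Pax5, Rag2, Reln, Slamf7, Sqstm1, Tap2, Tk1 and Zeb2.

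Rn7s1 and Rn7s2 had the highest fitted rises among the ranked genes of at least 5 CPM, but do not have this support. They encode the RNA of the signal recognition particle. Rn7s1 was at 0.361 and 0.580 CPM in DMSO and 1.14 and 20.1 CPM in JQ1 and Rn7s2 at 0.632 and 0.497 CPM in DMSO and 0.792 and 20.4 CPM in JQ1, so both rises rest on the second JQ1 library. Without that library their log2 changes were 1.25 (adjusted p = 0.534) and 0.49 (adjusted p = 0.809).

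Counted in CPM, the rise of Gm42418 given above was the largest among the genes named here, followed by those of H3f3b, Eef2 and Lars2. H3f3b, which encodes the histone variant H3.3, was at 529 and 532 CPM in DMSO and 1829 and 1800 CPM in JQ1, a log2 change of 1.77 ± 0.045 (adjusted p = 9.04e-20). Rbm34, an RNA-binding protein gene, was at 311 and 326 CPM in DMSO and 1160 and 1200 CPM in JQ1, a log2 change of 1.89 ± 0.045. In both genes the lowest JQ1 library was over 3 times the highest DMSO library. Eef2, the translation elongation factor gene, was at 6005 and 5705 CPM in DMSO and 7221 and 6986 CPM in JQ1 (0.28), and the chaperone gene Hsp90ab1 at 4853 and 4677 CPM in DMSO and 5813 and 5736 CPM in JQ1 (0.28). Lars2, the mitochondrial leucyl-tRNA synthetase gene, was at 755 and 1432 CPM in DMSO and 2144 and 2499 CPM in JQ1 (1.08). The gap between its DMSO libraries was wide. The small RNA gene Mir6240 showed the same order of libraries, at 40.0 and 72.8 CPM in DMSO and 123 and 149 CPM in JQ1. Whether the Lars2 reads come from its messenger RNA was not tested.

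Among the ranked genes of at least 5 CPM, the largest falls by log2 change included Sla, Il7r and Thbd. Il7r, the receptor for interleukin-7 on which early B cells depend (chromosome 15, 9505788 to 9530176), was at 88.8 and 95.3 CPM in DMSO and 6.25 and 5.41 CPM in JQ1. Both JQ1 values were far below both DMSO values, and the log2 change was -3.98 ± 0.098 (adjusted p = 7.77e-20). Thbd, the thrombomodulin gene, was at 102 and 102 CPM in DMSO and 7.48 and 6.29 CPM in JQ1 (-3.89 ± 0.11), and Sla, whose adaptor protein restrains signalling by antigen receptors, at 20.7 and 16.9 CPM in DMSO and 1.32 and 0.798 CPM in JQ1 (-4.13 ± 0.22). Cysltr1, a leukotriene receptor gene, was at 168 and 158 CPM in DMSO and 17 and 16.9 CPM in JQ1 (-3.27 ± 0.070). These 4 genes were chosen among those whose groups did not overlap, and in them the gap was many times the difference between libraries of a group. On the log2 scale Kcnn4, a calcium-activated potassium channel gene, fell by 3.65, and the receptor genes P2ry10b, Lgr5 and Gpr18 fell by 3.53, 3.17 and 3.17. P2ry10b has a near copy in P2ry10, between which reads may be split. Cd180, a surface partner of toll-like receptors on B cells, fell by 3.27 but overlaps Mast4 on the other strand. Ccdc125, Fam169b and Kctd14 fell by 3.14, 3.05 and 2.87, the histone deacetylase gene Hdac9 by 2.84, Il2ra, the alpha chain of the interleukin-2 receptor, by 2.73, and the recombinase gene Rag2 by 2.73.

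The largest falls in CPM were those of Reln, Cd24a and Tmem229b. Reln, a gene for a secreted glycoprotein, was at 1552 and 1559 CPM in DMSO and 1083 and 989 CPM in JQ1 (-0.59) and Cd24a, a surface glycoprotein of immature B cells, at 2094 and 2076 CPM in DMSO and 1566 and 1570 CPM in JQ1 (-0.41). Tmem229b, a membrane protein gene, was at 516 and 498 CPM in DMSO and 132 and 134 CPM in JQ1 (-1.93 ± 0.056). The transcription factor gene Myb was at 429 and 430.4 CPM in DMSO and 138 and 131 CPM in JQ1 (-1.68 ± 0.057) and Ikzf1, which encodes Ikaros, at 624 and 614 CPM in DMSO and 316 and 298 CPM in JQ1 (-1.01 ± 0.048). Lrmp, a membrane protein gene of lymphoid cells that overlaps Casc1 on the other strand, was at 789 and 794 CPM in DMSO and 513 and 482 CPM in JQ1 (-0.67). All 6 genes were chosen among those with both JQ1 libraries below both DMSO libraries. On the log2 scale, Tmem229b and Myb had the deepest falls of the 6.

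**Figure D2:**
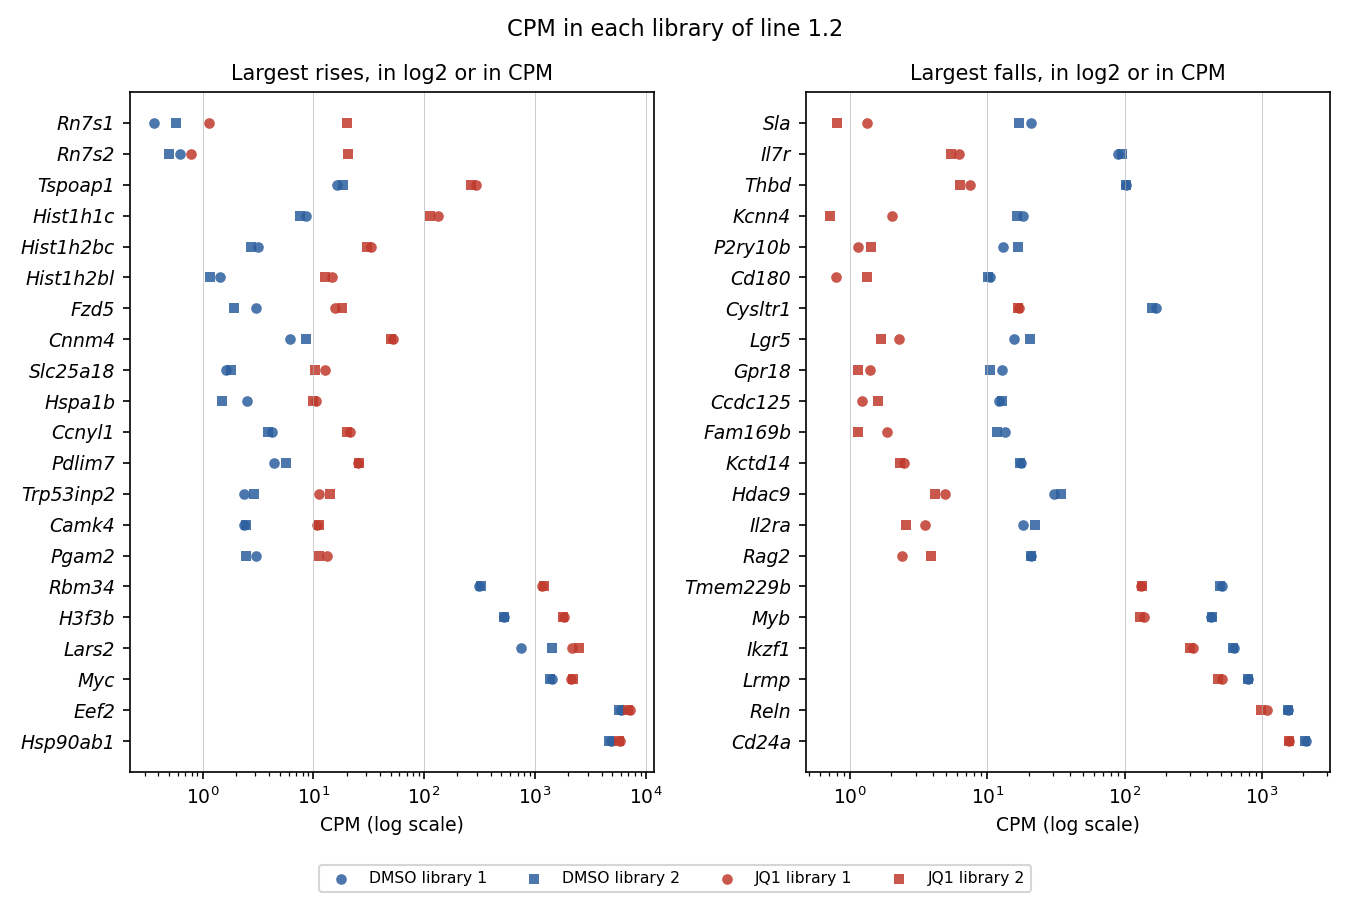
CPM (log axis) of the genes with the largest rises (left) and falls (right), by log2 change or by change in CPM, with 1 symbol per library of line 1.2. DMSO (blue) and JQ1 (red) symbols do not overlap in any row, since only genes without overlap were chosen. In Rn7s1 and Rn7s2 only the second JQ1 library is far from the others.

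The sequences before the start sites of 2 genes that rose and 2 that fell are shown to compare their base composition and motifs. Each is the 150 bases before the RefSeq start on GRCm38.p6, written 5′ to 3′ on the gene's strand, with matches to the motifs named after them in capitals. Hist1h1c lies at chr13:23738657-23738806 (+ strand), Bcl2l11 at chr2:128125888-128126037 (+), Il7r at chr15:9529877-9530026 (- strand) and Myb at chr10:21160985-21161134 (-).
Hist1h1c: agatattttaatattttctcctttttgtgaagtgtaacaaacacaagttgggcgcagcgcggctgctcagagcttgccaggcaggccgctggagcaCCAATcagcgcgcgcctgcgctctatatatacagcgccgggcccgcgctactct
Bcl2l11: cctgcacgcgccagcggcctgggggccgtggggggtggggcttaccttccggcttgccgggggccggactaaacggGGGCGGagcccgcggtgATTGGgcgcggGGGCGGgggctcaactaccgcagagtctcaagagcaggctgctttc
Il7r: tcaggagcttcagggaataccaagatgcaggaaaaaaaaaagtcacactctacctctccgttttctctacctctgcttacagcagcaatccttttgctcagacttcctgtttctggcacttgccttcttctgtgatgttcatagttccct
Myb: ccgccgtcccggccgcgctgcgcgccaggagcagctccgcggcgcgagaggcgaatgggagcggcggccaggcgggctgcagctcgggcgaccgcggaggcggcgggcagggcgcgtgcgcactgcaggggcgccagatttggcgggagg
Their GC content was 54.7% in Hist1h1c, 73.3% in Bcl2l11, 44.7% in Il7r and 80.7% in Myb. Hist1h1c held a CCAAT box 54 bases before the start, Bcl2l11 a CCAAT box and 2 GC boxes, and the other two held no match. The GENCODE span of Il7r runs past its window, which overlaps none of its annotated exons.

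Windows of 300 bases around the start (250 before, 50 after) were found for 8315 of 10278 coding genes tested (80.9%). Matches on either strand were counted, with no allowance for overlap between motifs. The GC box GGGCGG was in 75.8% of windows of genes that rose, 58.3% of those that fell and 65.9% of those not called, and in 66.6% of all 8315. The CCAAT box was in 42.8% of risers, 36.7% of fallers and 40.2% of all. The E-box CACGTG, a sequence MYC can bind, was in 10.9, 10.5 and 10.8% of the same sets, and the TATA box TATAAA in 6.44, 6.9 and 6.12%. In the 291 windows of genes that rose at least 2-fold, the E-box was in 6.87%, the TATA box in 11.3%, the CCAAT box in 49.8% and the GC box in 68.7%. Of the genes that fell at least 2-fold, 79.3% have a window, against 80.4% of those that rose at least 2-fold. In these 455 windows the E-box was in 7.69%, the TATA box in 11.4%, the CCAAT box in 32.5% and the GC box in 45.5%. In all risers, all fallers and all 8315 windows, the AP-1 sequence TGANTCA was in 3.42, 4.35 and 3.96%. The cyclic AMP element TGACGTCA was in 4.6, 2.68 and 3.62% of these sets. Median GC content was 63.7% in risers, 59.3% in fallers and 60.7% in genes not called. These shares are descriptions with no test, and a match is not a bound site.

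Genes of the BET proteins and of the elongation machinery moved in both directions, with Hexim1, a known marker of BET inhibition, among the risers. Of 36 members tested (37 listed), 16 rose, 10 fell and 10 were not called (median 0.053, against -0.0016 over all 12413 genes). Of all genes 24.4% rose and 25% fell, so the share of fallers in the list was near that background. These 2 shares are the background for each list count given later. The lists were chosen with earlier results of these data known, so setting a count beside the background is a description and no test. Here and later, listed members that are not tested were below the expression filter. Hexim1, whose protein holds the elongation kinase P-TEFb inactive and whose rise is widely used to track BET inhibitor activity, was at 127 and 128 CPM in DMSO and 315 and 327 CPM in JQ1 (1.33 ± 0.049, adjusted p = 1.49e-16). Brd2 was at 370.1 and 353 CPM in DMSO and 689 and 718 CPM in JQ1 (0.96 ± 0.047). Polr2a, the gene of the largest subunit of RNA polymerase II, was at 396 and 393 CPM in DMSO and 872 and 862 CPM in JQ1 (1.14). In each of these 3 genes the groups were clearly apart. Mepce, which encodes the enzyme that caps the 7SK RNA, rose by 1.01, and the elongation factor gene Ell2 by 1.05. Ccnt1 and Cdk9, the subunits of P-TEFb, rose by 0.51 and 0.25. Brd3 was at 129 and 135 CPM in DMSO and 135 and 136 CPM in JQ1 and was not called (0.039 ± 0.055, adjusted p = 0.582). Among the fallers, Hexim2, a relative of Hexim1, fell by 1.19 at a mean of 1.67 CPM, and Nelfa and Nelfcd, subunits of the pausing factor NELF, fell by 0.32 and 0.34.

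Myc itself did not fall. It was at 1422 and 1357 CPM in DMSO and 2131 and 2194 CPM in JQ1, a log2 change of 0.64 ± 0.051 (adjusted p = 2.33e-10), and both JQ1 libraries were above both DMSO libraries. Reads of the transgene and of the endogenous gene are summed in this value. Of 10 tested members of the MYC network (13 listed), 5 rose, 0 fell by edgeR's test (1, Mlx, at an unadjusted p under 0.05, and 1 without the first DMSO library) and 5 were not called. Besides Myc, the risers were the repressive partners of MAX encoded by Mxd1 (8.21 and 8.86 CPM in DMSO and 20.6 and 25.0 CPM in JQ1, 1.41), Mxd3 (0.80) and Mnt (0.54), and Mlxip (0.56), a glucose-responsive relative. Max was at 148 and 147 CPM in DMSO and 148 and 159 CPM in JQ1 and was not called (0.056).

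Genes of ribosome biogenesis and growth that are commonly linked to MYC changed little. Of 56, all of them tested, 11 rose, 20 fell and 25 were not called, where 24.4% of all genes rose and 25% fell. Their median was -0.026 and their range -0.71 to 0.38. Their summed level was 25460 and 25190 CPM in DMSO and 25580 and 25560 CPM in JQ1. The folate carrier gene Slc19a1 fell by 0.71, the pseudouridine synthase gene Dkc1 by 0.57, and the nucleolar genes Ppan and Gnl3 by 0.51 and 0.46. Eif4a1, a translation initiation helicase, and Hk2, a hexokinase, rose by 0.38 and 0.38. The abundant nucleolar genes Ncl (0.058) and Npm1 (0.080) were not called.

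The listed B lineage transcription factors fell in most cases. Of 24 tested (28 listed), 19 fell, 4 rose and 1 was not called, where 25% of all genes fell, and the median was -0.525. Beside Myb and Ikzf1, the POU factor gene Pou2f1 was at 79.2 and 83.5 CPM in DMSO and 25.1 and 20.5 CPM in JQ1 (-1.84), Zeb2 at 148 and 149 CPM in DMSO and 54.0 and 49.2 CPM in JQ1 (-1.52) and Mef2c at 112 and 109.5 CPM in DMSO and 45.5 and 42.4 CPM in JQ1 (-1.33). Irf4, a factor of activated B cells, was at 335 and 328 CPM in DMSO and 150.5 and 153 CPM in JQ1 (-1.13). In each the 2 JQ1 libraries were below both DMSO libraries by far more than libraries of a group differed. Smaller falls were found in Ikzf3 (-0.78), in Pax5, the factor that commits cells to the B lineage (-0.73), in Bach2 (-0.54), and in Ebf1 (-0.53), which acts with Pax5. Spi1, which encodes PU.1, fell by 0.52 and the coactivator gene Pou2af1 by 0.48. The 4 that rose were Irf8 (0.60), Id3, an inhibitor of E proteins (0.59), Foxo1 (0.49) and Spib (0.44).

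The B cell receptor and its coreceptors followed the same direction, where 25% of all genes fell. Of 31 tested (33 listed), 22 fell, 4 rose and 5 were not called (median -0.441), and the summed level was 5006 and 4861 CPM in DMSO and 3722 and 3666 in JQ1. The inhibitory coreceptor gene Cd22 was at 169.9 and 165 CPM in DMSO and 64.3 and 58.9 CPM in JQ1 (-1.44 ± 0.059), the inhibitory Fc receptor gene Fcgr2b at 182 and 179 CPM in DMSO and 69.8 and 71.3 CPM in JQ1 (-1.36) and Cd72 at 195 and 208 CPM in DMSO and 92.4 and 88.5 CPM in JQ1 (-1.16). Of the signalling subunits, Cd79b was at 438 and 426 CPM in DMSO and 249 and 251 CPM in JQ1 (-0.79) and Cd79a at 447 and 420.3 CPM in DMSO and 383 and 381 CPM in JQ1 (-0.18), so Cd79a moved less. The adaptor gene Blnk fell by 1.15, and the kinase genes Blk, Btk and Syk by 1.31, 0.56 and 0.39. Ighm, the constant region of the IgM heavy chain, was at 1574 and 1525 CPM in DMSO and 1838 and 1799 CPM in JQ1 and rose by 0.23. Cd81, a tetraspanin gene, rose by 0.58, and Lyn (0.079) was not called.

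Genes of early B cell stages had some of the deepest falls. Of 10 tested (17 listed, 16 in the table), 8 fell, 1 rose and 1 was not called, where 25% of all genes fell, with a median of -1.44. The recombinase gene Rag1 was at 54.8 and 53.1 CPM in DMSO and 9.24 and 8.78 CPM in JQ1 (-2.58 ± 0.091) and Rag2 at 20.9 and 20.8 CPM in DMSO and 2.38 and 3.90 CPM in JQ1 (-2.73). Spn, the gene of CD43, was at 58.1 and 57.0 CPM in DMSO and 23.3 and 19.8 CPM in JQ1 (-1.42), and Cd93 at 59.7 and 60.9 CPM in DMSO and 25.4 and 18.6 CPM in JQ1 (-1.46). Vpreb3 fell by 0.39, and the transcription factor gene Sox4 rose by 0.29, a call lost with DESeq2, with the Gm42418 covariate and without the second DMSO library or either JQ1 library. Of the 12 plasma cell and germinal centre genes, 7 were tested, of which 5 fell and 1 rose. Cd38, an ectoenzyme of the B cell surface, was at 70.4 and 76.1 CPM in DMSO and 14.2 and 11.9 CPM in JQ1 (-2.49) and Slamf7, a receptor of plasma cells, at 186 and 189 CPM in DMSO and 55.0 and 56.1 CPM in JQ1 (-1.75). The germinal centre factor gene Mybl1 was at 0.542 and 0.828 CPM in DMSO and 2.73 and 4.17 CPM in JQ1 (2.30), a rise from a very low level.

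Receptors through which lymphocytes sense cytokines, chemokines and lipids fell in most cases tested, where 25% of all genes fell. Of 21 cytokine and homing receptor genes tested (29 listed), 15 fell, 2 rose (1 without the second DMSO or the first JQ1 library) and 4 were not called (median -0.837), and the sum over all 29 was 1200 and 1193 CPM in DMSO and 639 and 607 CPM in JQ1. Ccr7, which guides cells into lymph nodes, was at 41.3 and 39.8 CPM in DMSO and 12.2 and 10.0 CPM in JQ1 (-1.87) and the integrin gene Itga4 at 214 and 209.5 CPM in DMSO and 84.2 and 77.3 CPM in JQ1 (-1.39). The receptors of the survival factor BAFF, Tnfrsf13c and Tnfrsf13b, fell by 1.15 and 1.08, and Cxcr4 by 0.56. Il4ra, the interleukin-4 receptor gene, rose by 0.77, and Il2rg (-0.12) was not called. Of 15 lymphocyte G protein coupled receptor genes tested (26 listed), 11 fell, 1 rose and 3 were not called (median -1.67), and the sum over all 26 was 355 and 349 CPM in DMSO and 92.8 and 93.6 CPM in JQ1. S1pr1, which leads lymphocytes out of tissue, was at 40.7 and 38.9 CPM in DMSO and 12.9 and 10.7 CPM in JQ1 (-1.75), S1pr4 at 37.4 and 36.8 CPM in DMSO and 12.6 and 15.4 CPM in JQ1 (-1.40) and Gpr132 at 21.8 and 25.1 CPM in DMSO and 6.51 and 6.74 CPM in JQ1 (-1.82).

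Cd274 was low in line 1.2 and lower after JQ1. It was at 2.26 and 3.31 CPM in DMSO and 1.41 and 0.975 CPM in JQ1, from 11 to 40 reads per library. The 2 groups did not overlap, and the log2 change was -1.23 ± 0.33 (SE, adjusted p = 0.00336). This call was lost with DESeq2 (-1.22, adjusted p = 0.0785), without the second DMSO library (-0.91, adjusted p = 0.0797), without the second JQ1 library (-0.99, adjusted p = 0.0526) and when the level of Gm42418 entered the fit (-0.95, adjusted p = 0.405). Of 16 tested checkpoint and costimulatory ligands (25 listed), 10 fell, 1 rose and 5 were not called (median -0.693), where 25% of all genes fell. Btla, an inhibitory receptor of lymphocytes, was at 22.8 and 23.8 CPM in DMSO and 4.40 and 3.72 CPM in JQ1 (-2.52 ± 0.14) and Ceacam1, another inhibitory receptor, at 39.5 and 39.1 CPM in DMSO and 13.5 and 14.4 CPM in JQ1 (-1.49). Cd47, the signal that restrains engulfment by macrophages, was at 143 and 149 CPM in DMSO and 76.5 and 71.2 CPM in JQ1 (-0.98), and Cd48 at 49.0 and 49.5 CPM in DMSO and 24.9 and 24.6 CPM in JQ1 (-0.99). Icam1, an adhesion ligand of T cells, was the member that rose, from 19.9 and 21.5 to 32.9 and 34.0 CPM (0.69). Cd80, a costimulatory ligand, fell by 4.62 at a mean of only 0.688 CPM.

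Interferon response genes fell more often than they rose, and genes of antigen presentation did not move together. Of 15 tested interferon response genes (33 listed), 8 fell, 3 rose and 4 were not called (median -0.558). Parp14, an ADP-ribosyltransferase gene, was at 25.7 and 27.2 CPM in DMSO and 4.05 and 4.43 CPM in JQ1 (-2.64 ± 0.13), Dtx3l at 37.5 and 39.5 CPM in DMSO and 12.3 and 13.1 CPM in JQ1 (-1.60) and its partner gene Parp9, which overlaps it on the other strand, fell by 0.95. Irf9 and Stat2, mediators of interferon signals, rose by 0.56 and 0.49. Of 22 MHC class I genes, all tested, 8 fell, 4 rose and 10 were not called (median -0.055), where 25% of all genes fell and 24.4% rose. The peptide transporter gene Tap2 was at 38.2 and 36.8 CPM in DMSO and 18.9 and 19.7 CPM in JQ1 (-0.96) and the trimming peptidase gene Erap1 at 119 and 125 CPM in DMSO and 79.8 and 75.1 CPM in JQ1 (-0.66), whereas the heavy chain gene H2-K1 was at 156 and 159.6 CPM in DMSO and 226 and 225 CPM in JQ1 (0.52) and B2m (0.096) was not called. Of 11 tested MHC class II genes (15 listed), 4 fell and 1 rose. H2-Ob fell by 0.93, the regulator gene Rfx5 by 0.81 and H2-Ab1 by 0.60.

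Among the regulators of cell death, Bcl2l11 changed most. The gene encodes the killer protein BIM (chromosome 2, 128126038 to 128162547) and was at 47.4 and 46.9 CPM in DMSO and 128 and 136 CPM in JQ1, a log2 change of 1.49 ± 0.060 (adjusted p = 9.48e-16) with no overlap between groups. Bcl2, which BIM antagonises, was at 104 and 111 CPM in DMSO and 87.4 and 80.8 CPM in JQ1 (-0.36 ± 0.059), a call lost with the Gm42418 covariate (-0.19, adjusted p = 0.418). The killer gene Bmf fell by 0.92 and the effector gene Bak1 by 0.49, while Bbc3, which encodes PUMA, rose by 0.48 and Mcl1 by 0.12. Of 13 tested (18 listed), 4 rose, 3 fell and 6 were not called, and the 4 became 2 without any 1 of the 4 libraries. Of 26 tested p53 target genes (30 listed), 8 rose, 7 fell and 11 were not called (median -0.02), close to the 24.4% higher and 25% lower among all genes. Sesn2 was at 7.13 and 7.37 CPM in DMSO and 16.5 and 17.6 CPM in JQ1 (1.23) and Btg2 at 134 and 140.1 CPM in DMSO and 219 and 231 CPM in JQ1 (0.71), but Mdm2 and Ccng1 fell by 0.21 and 0.28 and Cdkn1a, near 2.01 CPM, was not called.

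Genes of the immediate early response and of its feedback rose more often than not, where 24.4% of all genes rose and 25% fell. Of 26 tested (37 listed), 16 rose, 4 fell and 6 were not called (median 0.428), and the sum over all 37 was 1042 and 1028 CPM in DMSO and 1671 and 1692 CPM in JQ1. Jund was at 122 and 113 CPM in DMSO and 302 and 287 CPM in JQ1 (1.33 ± 0.058) and Jun at 15.5 and 19.9 CPM in DMSO and 45.9 and 51.2 CPM in JQ1 (1.45), both parts of the AP-1 factor. The antiproliferative gene Tob1 was at 16.4 and 16.9 CPM in DMSO and 69.8 and 73.1 CPM in JQ1 (2.10 ± 0.082), Btg1 at 72.3 and 70.5 CPM in DMSO and 131 and 131 CPM in JQ1 (0.87) and Ier5 at 58.4 and 60.0 CPM in DMSO and 111 and 111 CPM in JQ1 (0.91). In all 5 both JQ1 libraries were above both DMSO libraries. Nr4a2 rose by 1.54 while its relative Nr4a1 fell by 0.76. The NF-kB list was split, with 5 of 17 tested members higher (3 without the second DMSO library) and 6 lower, among them Nfkb1 (-0.65), Birc3 (-0.54) and, in the other direction, Nfkb2 (0.54).

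Histone transcripts were higher after JQ1 in sum. The libraries held 97.6 and 99.9 CPM from all 67 cluster and linker histone genes in the table after DMSO and 436 and 402 CPM after JQ1. Of the 67, 21 passed the filter, some of them only because of their level in JQ1, so the 20 that rose are given as a description. The 46 that did not pass summed to 2.08 and 1.57 CPM in DMSO and 7.92 and 10.4 CPM in JQ1, and 35 of them had a higher mean in JQ1 and 2 a lower one. H1f0, a linker histone made outside S phase, was at 44.8 and 45.5 CPM in DMSO and 142 and 125 CPM in JQ1 (1.56 ± 0.067) and Hist2h2be at 13.2 and 12.8 CPM in DMSO and 38.5 and 37.7 CPM in JQ1 (1.56). Hist1h2bn was at 0.542 and 0.497 CPM in DMSO and 5.55 and 5.67 CPM in JQ1 (3.41), and Hist1h2ai, at 8.67 and 8.69 CPM in DMSO and 12.5 and 14.2 CPM in JQ1, rose least (0.62). Most cluster histone messages lack a poly(A) tail, how the kit enriched mRNA is not stated in the labels, and near-identical copies may share reads, so the levels are of the detected part.

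Most endoplasmic reticulum chaperone genes rose, and stress genes that changed were mostly higher. Of 19 endoplasmic reticulum chaperone genes, all tested, 12 rose, 1 fell and 6 were not called (median 0.226). Over all genes, 24.4% rose and 25% fell. Sil1, an exchange factor of the chaperone BiP, was at 22.8 and 21.8 CPM in DMSO and 93.6 and 101 CPM in JQ1 (2.12 ± 0.074), and Hspa5, which encodes BiP, at 284 and 286 CPM in DMSO and 526 and 518 CPM in JQ1 (0.87). Calr and P4hb rose by 0.54 and 0.45, whereas Xbp1, a factor that induces such genes, fell by 0.45. Of 20 tested ATF4 targets (25 listed), 10 rose, 1 fell and 9 were not called (median 0.232), and the 1 faller became 0 without any 1 of the 4 libraries. Atf5 was at 5.69 and 6.79 CPM in DMSO and 14.3 and 17.6 CPM in JQ1 (1.35), Slc7a5, an amino acid transporter gene, at 298 and 286 CPM in DMSO and 426 and 423 CPM in JQ1 (0.54), and Ddit4, an inhibitor of mTORC1, at 114 and 119.7 CPM in DMSO and 214 and 183 CPM in JQ1 (0.76). Asns (-0.045) and Phgdh (0.054) were not called. Of 21 heat shock genes, 10 rose, 2 fell and 9 were not called. Hspa1a and Hspa1b, near-identical genes, rose by 2.41 and 2.36, Hspa8 by 0.48, and Hsp90aa1 (0.019) was not called.

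Among catabolic genes, several of autophagy rose about 2-fold. Of 42 tested autophagy and lysosome genes (45 listed), 18 rose, 6 fell and 18 were not called (median 0.111). Over all genes, 24.4% rose and 25% fell. The cargo receptor gene Sqstm1 was at 85.6 and 80.3 CPM in DMSO and 170.2 and 180.1 CPM in JQ1 (1.08 ± 0.054), the conjugation gene Atg12 at 22.4 and 21.4 CPM in DMSO and 47.4 and 48.3 CPM in JQ1 (1.13) and the initiating kinase gene Ulk1 at 47.0 and 44.6 CPM in DMSO and 88.7 and 98.0 CPM in JQ1 (1.03). Of 30 tested glycolysis and hypoxia genes (33 listed), 16 rose, 6 fell and 8 were not called. The glucose transporter gene Slc2a1 was at 80.6 and 79.2 CPM in DMSO and 123 and 103 CPM in JQ1 (0.50) and Pfkl at 193 and 179.8 CPM in DMSO and 287 and 250.0 CPM in JQ1 (0.53), while Slc2a3 fell by 0.58 and Egln1, an oxygen sensor, by 0.41. Leaving out the first JQ1 library lowered the 16 risers to 8. Of 9 tested polyamine genes, 6 rose, among them Sat1 (0.76), Azin1 (0.75) and Oaz2 (0.71), and Srm, the spermidine synthase gene, fell by 0.44. Of 25 cholesterol synthesis genes tested, 8 rose and 5 fell. Idi1 and Insig1 rose by 0.52 and 0.57 and Stard4 fell by 0.36, and the 8 risers became 4, 5 and 3 without the first DMSO, the second DMSO and the first JQ1 library. The 5 fallers became 3 without the first DMSO or the second JQ1 library.

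Cell cycle genes moved little in size at 2 h, and more of them fell than rose. Over all genes tested, 24.4% rose and 25% fell. Of 43 DNA replication genes, 7 rose (4 without the second DMSO library), 15 fell and 21 were not called (median -0.071). Tk1, the thymidine kinase gene, was at 73.6 and 76.2 CPM in DMSO and 49.0 and 43.5 CPM in JQ1 (-0.69) and Mcm3 at 432 and 439.5 CPM in DMSO and 312 and 311 CPM in JQ1 (-0.49), against Cdc6 at 95.9 and 95.1 CPM in DMSO and 126 and 132 CPM in JQ1 (0.43) and Rrm2 at 317 and 310.0 CPM in DMSO and 400.2 and 393 CPM in JQ1 (0.34). Of 40 mitosis genes, 21 fell, 4 rose and 15 were not called (median -0.135), with no change beyond -0.485 and 0.306. Plk1 fell by 0.39 and Nuf2 by 0.46, and Cenpf rose by 0.31. Without the first DMSO library 12 mitosis genes fell and 1 rose, and 2 rose without the second library of either group. Of 21 tested G1 genes (25 listed), 7 fell (4 without the second DMSO library) and 4 rose (2 without the first JQ1 library), among them Cdk6 (-0.63), Ccnd1 (-0.24) and E2f5 (0.76). Of 83 cytosolic ribosomal protein genes, 26 rose by at most 0.23, 1 fell and 56 were not called, and the 26 became 16 with library totals as scaling and 13, 15 and 17 without the second DMSO, the first JQ1 and the second JQ1 library. Of 13 mitochondrially encoded genes, 2 fell (mt-Nd3, -0.13, and mt-Atp8, -0.12), and neither call was kept with DESeq2 or without either DMSO library or the first JQ1 library.

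Several of these counts moved when Gm42418 entered the fit as a covariate. Fallers then numbered 8 of 40 mitosis genes, 4 of 43 DNA replication genes, 10 of 56 MYC-linked growth genes and 2 of 22 MHC class I genes. Risers numbered 10 in the BET and elongation list, 9 among histones, 5 in the glycolysis and hypoxia list, 5 among p53 targets and 0 in the G1 list. The calls of Cdk6, Ccnd1, E2f5, Bmf, Cdc6, Cenpf, Mybl1 and Stard4 were lost in that fit. The counts of fallers among B lineage transcription factors, B cell receptor genes, early B cell genes and both receptor lists moved by less than 1.5 times. With DESeq2, fallers numbered 4 of 22 MHC class I genes and 3 of 21 G1 genes.

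**Figure D3:**
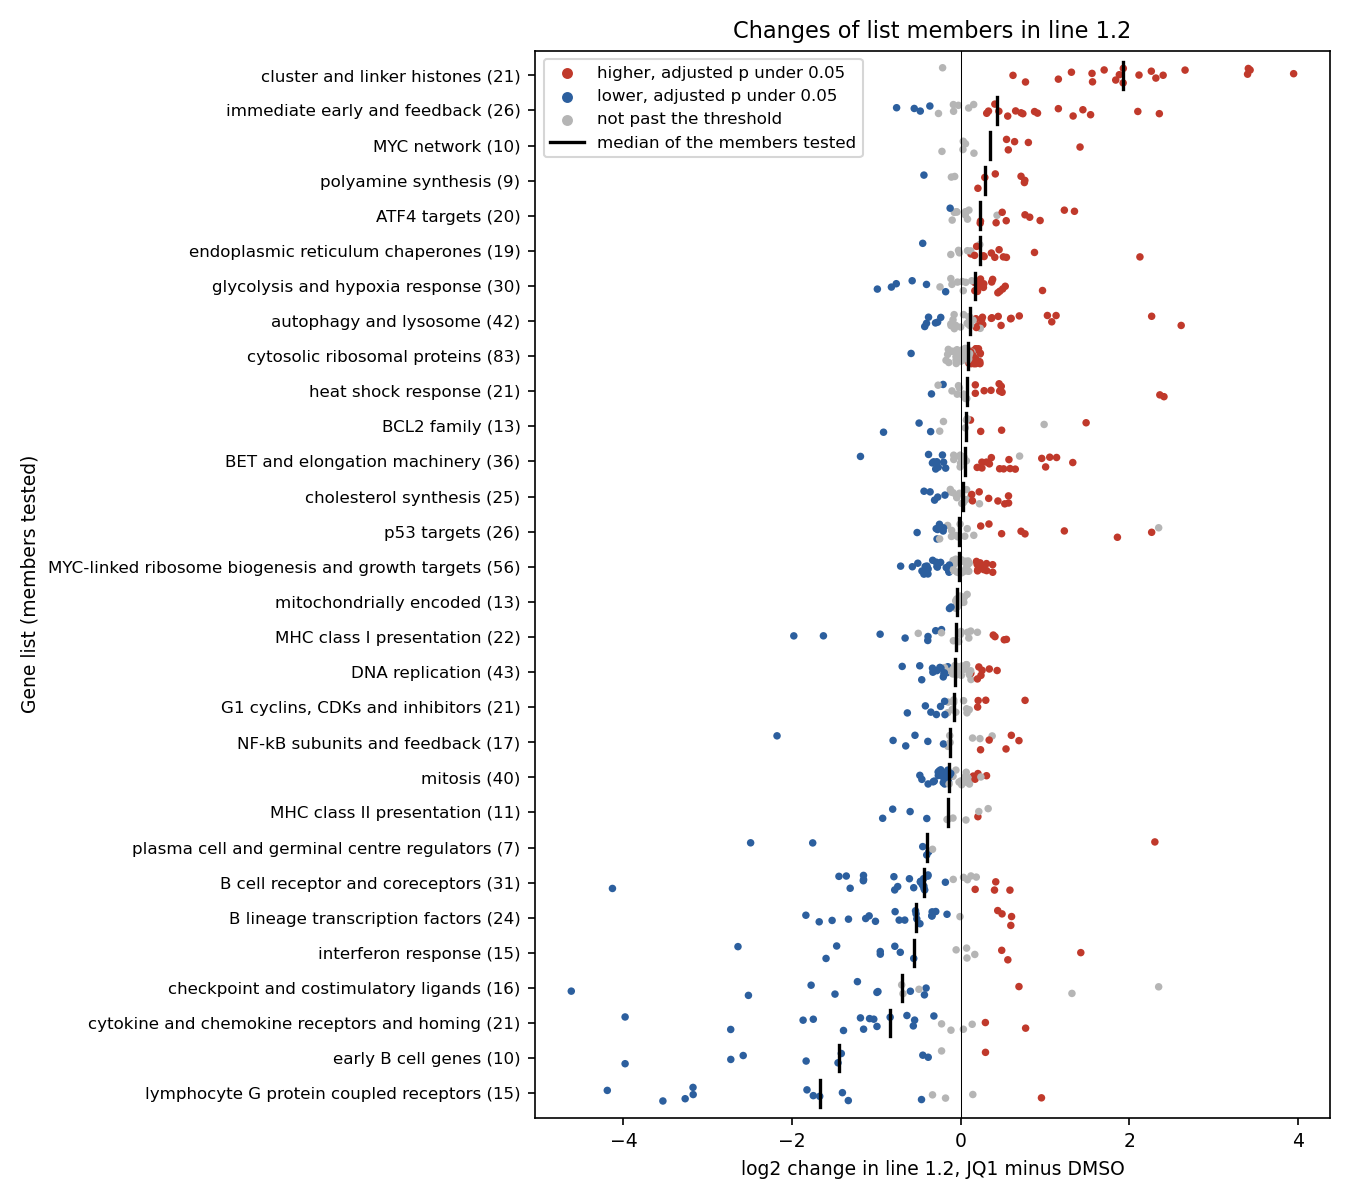
Each point is a tested member of a gene list, placed by its log2 change in line 1.2, red where it was higher, blue where it was lower at an adjusted p under 0.05 and grey otherwise. Black bars are medians, from -1.67 for lymphocyte G protein coupled receptors and -1.44 for early B cell genes to 1.92 for histone genes, of which 21 of 67 were tested.

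The markers of other cell types that could be measured gave the following values. Of the T cell list, 2 of 16 passed the filter, and Cd2, at 14.6 and 15.5 CPM in DMSO and 5.11 and 5.23 CPM in JQ1, fell by 1.54, while Cd6, at 0.361 and 0.248 CPM in DMSO and 0.176 and 0.621 CPM in JQ1, was not called (0.38). Of the myeloid list, 5 of 16 passed, with log2 changes of -1.78 in Mrc1, -1.26 in Fcgr3, -1.08 in Itgam and 0.87 in Ccr2, and Cd68, a lysosomal protein gene, was at 2.98 and 3.56 CPM in DMSO and 10.0 and 8.51 CPM in JQ1 (1.5). The call of Fcgr3 was lost with DESeq2 and without the first JQ1 library, and that of Ccr2 with DESeq2, with the Gm42418 covariate and without the first DMSO or the first JQ1 library. Their part in the results was not tested. Pecam1 was at 86.2 and 87.4 CPM in DMSO and 20.2 and 18.8 CPM in JQ1 (-2.15), Cdh5, another endothelial adhesion gene, at 1.53 and 1.41 CPM in DMSO and 0.352 and 0 CPM in JQ1 (-2.98), and Vim (0.049) was not called.

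Shares of called genes were also counted by the structure of the genes. Among coding genes of at least 5 CPM, those whose main transcript has 1 exon rose in 35.7% and fell in 18.1% of 171 cases, and 7.02% rose at least 2-fold. In the 4 classes with more exons, risers made up between 26 and 33.2% and fallers between 27.6 and 29.7%, and at most 1.83% rose at least 2-fold. Hexim1, Jund, Hist1h1c and Thbd are such single-exon genes, chosen here after their values were seen, and of these Thbd fell. The histone genes H1f0, Hist2h2be and Hist1h2bl also have 1 exon and rose at least 2-fold. The 7.02% therefore partly repeats the histone values above. Genes spanning over 100 kb fell at least 2-fold in 5.57% of 916 cases, against 2.03% of 837 genes under 5 kb. Among 639 long noncoding genes, 7.67% rose and 24.4% fell, but their median level was 1.95 CPM against 34.9 CPM in coding genes. Over the chromosomes, among coding genes of at least 5 CPM, risers ranged from 20.6% of 253 genes on the X to 33.3% of 414 on chromosome 10, and fallers from 21.4% of 485 on chromosome 8 to 35.6% of 362 on chromosome 6. These shares carry no test, and genes of low level are called less readily.

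Few genes responded differently in the 2 lines by a test of the difference itself. Of 12413 genes, 14 (0.113%) passed, while 1000 had an unadjusted p under 0.05. Of the 6136 genes called in line 1.2, 4985 were called with the same sign in line 1.1 and 5 with the opposite sign. The other 1146 were not called in line 1.1, but 1024 of these had the same sign there and 4 passed the test of the difference, so a call in line 1.2 alone does not show a difference. The lines share no libraries in this test.

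Of the 14, Plxnc1, a semaphorin receptor gene, differed most firmly. In line 1.2 it was at 5.96 and 7.04 CPM in DMSO and 4.84 and 5.41 CPM in JQ1 and was not called (-0.35, adjusted p = 0.0911), whereas in line 1.1 it averaged 158 CPM in DMSO and 449 CPM in JQ1. The difference of the log2 changes, line 1.2 minus line 1.1, was -1.85 ± 0.17 (SE, adjusted p = 8.39e-07). Scml4, a Polycomb-related gene, was at 9.12 and 7.62 CPM in DMSO and 2.20 and 2.13 CPM in JQ1 in line 1.2 and fell by 1.94, while line 1.1 went from a mean of 9.27 to 7.83 CPM, a difference of -1.71 (adjusted p = 0.00177). Tspoap1 rose in both lines, by 3.99 in line 1.2 and 5.04 in line 1.1, to JQ1 levels of 278 and 245 CPM, and its lower rise in line 1.2 went with a higher DMSO level (17.4 against 7.51 CPM). Adam19, a membrane protease gene, fell in both lines, by less in line 1.2 (difference 0.59, adjusted p = 0.00107). The number of such genes depends on single libraries, and was 445 without the first and 42 without the second DMSO library of line 1.1, 7 without the first DMSO library of line 1.2, and 8 without its second JQ1 library or without the first JQ1 library of line 1.1.

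Rbm34 rose more in line 1.2 than in line 1.1, with log2 changes of 1.89 and 1.42 (difference 0.47 ± 0.069, adjusted p = 0.00121), and its DMSO level was also higher, at a mean of 318 CPM against 80.9 CPM. The gene lies on the minus strand of chromosome 8 (126947172 to 126971071). The small nucleolar RNA gene Gm26397 (126944847 to 126944980), 2191 bases beyond the end of Rbm34 on the same strand, was also among the 14. It was at 2.80 and 2.73 CPM in DMSO and 29.1 and 28.1 CPM in JQ1, a log2 change of 3.37 ± 0.14 and a difference of 1.79. Gm26397 lies within the span of Tomm20 (126930667 to 126945844), a mitochondrial import receptor gene named here after its values were seen. Tomm20 was at 279 and 279 CPM in DMSO and 341 and 332 CPM in JQ1, a log2 change of 0.27 beside 3.37 in Gm26397. The source of the Gm26397 reads was not tested. When Gm42418 entered the fit as a covariate, the differences between lines in Rbm34 (0.41, adjusted p = 0.28), Tspoap1 (-0.77, adjusted p = 0.238), Scml4 (-1.92, adjusted p = 0.103) and Gm26397 (1.91, adjusted p = 0.0956) no longer passed.

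**Figure D4:**
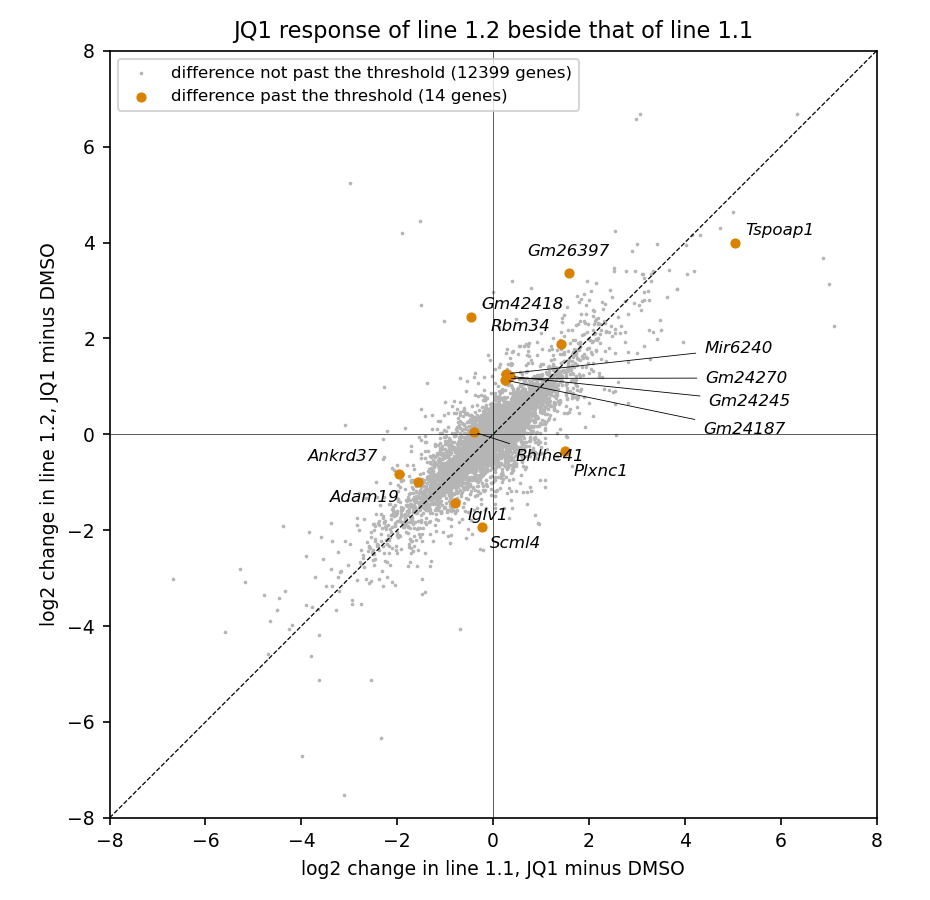
Each point is a gene, placed by its log2 change in line 1.1 (x) and in line 1.2 (y), and the dashed line marks equal change. The 14 genes whose difference passed the threshold are orange, and Gm42418 (2.91), Plxnc1 (-1.85), Gm26397 (1.79) and Scml4 (-1.71) lie farthest from equality among them.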

How the data were processed

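RNA-seq was measured in 8 libraries of 2 Eμ-Myc lymphoma lines, 2 libraries for each line and treatment. The authors deposited raw gene counts in 1 table, and 0 of its columns went unused for lack of a matching sample. RNA was extracted with a Nucleospin kit, per the labels' protocols. FastQC, cutadapt 1.7, TopHat, Bowtie2, HTSeq and limma, and the builds GRCm38 and mm10, are named in the submitters' processing notes. For the annotation release and the strand setting, the value is not given in the sources used here. Rows for reads in no feature (12.3 to 14.4% of counted reads) or in several (1.54 to 1.67%) were left out.

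Genes were filtered with filterByExpr (minimum count 10, minimum total 15), scaled by TMM and tested with edgeR 4.0.16 (R 4.3.3), quasi-likelihood F test, on all 8 libraries with 1 mean per group. The contrast was JQ1 minus DMSO in line 1.2, and the difference between lines was the interaction contrast. P-values were adjusted by Benjamini-Hochberg over all 12413 genes. The fit was tested on simulated data. Library pairs of a group differed beyond sampling noise (chi-square per degree of freedom 1.36 to 4.09). The floor of 3 reads covers counting error only, while standard errors and p-values include the scatter between libraries. Each SE given was derived from the test, as the absolute log2 change divided by the square root of F. Near-identical genes (Hspa1a and Hspa1b, histones, immunoglobulin V genes) may split reads.

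Members and lists were chosen with earlier results of these data known. The genes named were the 15 largest rises and 15 largest falls by log2 change (mean of at least 5 CPM, libraries not overlapping, a symbol that is no predicted gene or clone), the 6 largest rises and falls in CPM, the genes whose response differed between lines, up to 4 members of each list by smallest p (mean of at least 1 CPM), and Cd274, Myc, Hexim1, Brd2, Brd3, Bcl2 and Bcl2l11. A few genes chosen this way are not reported here. Other list members were named after their values were seen, to show the range within a list. Alternatives tried were other scalings, DESeq2 1.42.0, limma-voom (limma 3.58.1), other filters and thresholds, a replicate block, a Gm42418 covariate and leaving out each library. Promoter sequences are RefSeq's, on GRCm38.p6.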

Additional observations from a re-analysis of the deposited data

Results flagged for a closer look

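The JQ1 effect differed between the 2 lines in 14 genes by the interaction test of edgeR over 12413 genes (values are line 1.2 minus line 1.1, log2). Of the coding genes, Plxnc1 differed by -1.85 (adjusted p = 8.39e-07), Scml4 by -1.71 (adjusted p = 0.00177), Tspoap1 by -1.04 (adjusted p = 0.000719), Adam19 by 0.588 (adjusted p = 0.00107), Rbm34 by 0.469 (adjusted p = 0.00121), Bhlhe41 by 0.456 (adjusted p = 0.0447) and Ankrd37 by 1.13 (adjusted p = 0.042). Bhlhe41, a circadian repressor gene, averaged 208 CPM in DMSO and 215 CPM in JQ1 in line 1.2 and was not called there, against 184 and 138 CPM in line 1.1. Ankrd37, a hypoxia-induced gene that overlaps Ufsp2 and Lrp2bp on the other strand, had means of 81.8 (DMSO) and 46.3 CPM (JQ1) in line 1.2, against 48.0 and 12.4 CPM in line 1.1.

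The immunoglobulin light chain V gene Iglv1 differed by -0.631 (adjusted p = 0.0233), with means of 47.6 and 17.6 CPM in line 1.2 and 754 and 432 CPM in line 1.1. The small RNA genes Gm26397, Gm24270, Gm24245, Gm24187 and Mir6240 differed by 1.79, 0.87, 0.849, 0.88 and 0.99 (adjusted p = 0.00571, 0.0345, 0.042, 0.0233 and 0.0306). Gm42418 differed by 2.91 (adjusted p = 0.000378), with the second JQ1 library of line 1.2 the highest at 2644 CPM. Mir6240 averaged 56.4 CPM in DMSO and 136 CPM in JQ1 in line 1.2, against 76.8 and 92.6 CPM in line 1.1. With DESeq2 the calls for Ankrd37, Bhlhe41, Scml4, Gm24187, Gm24245, Gm24270, Mir6240 and Gm42418 were lost. The calls for Ankrd37, Bhlhe41 and Iglv1 were also lost with limma-voom, with the Gm42418 covariate, without each line 1.2 library and without the first JQ1 library of line 1.1, where Ankrd37 differed by 0.747 (adjusted p = 0.763). Iglv1 was lost without the second JQ1 library of line 1.1 too. Those for Gm24187, Gm24245, Gm24270 and Mir6240 were lost with the covariate, without either JQ1 library of line 1.1, without the second JQ1 library of line 1.2 and without its first DMSO library, where Gm24270 differed by 0.558 (adjusted p = 0.147) and Mir6240 by 0.633 (adjusted p = 0.0638). No group of 2 libraries was large enough to look for a single outlying sample.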

How the results depend on the processing

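Counts of genes higher and lower in line 1.2 (3031 and 3105) stayed within 1.5 times under every scaling, filter, tool and left-out library tried, except when tested against a 1.5-fold change (420 and 662) and when Gm42418 was a covariate (1383 and 1525, 5 calls with the opposite sign). The covariate goes with the treatment in line 1.2, so part of that loss is built into the fit, and the rest was not tested. The counts were 2068 and 2112 with DESeq2, which shared 4180 of the 6136 calls. Library totals as scaling moved the median of all genes to -0.047 and gave 2559 and 3581. Leaving out a line 1.2 library gave 2314 to 2508 higher and 2455 to 2589 lower genes.

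The count of 14 genes that differ between lines was unstable: 7 with DESeq2, 80 with no filter, 8 with at least 5 CPM in 2 libraries, 2 with the fold test, 7 at a threshold of 0.01, 8 with the covariate, and 7 to 445 with a library left out. Same-numbered libraries showed little shared deviation (correlation 0.04 between the line 1.2 groups, -0.042 to 0.15 for the other pairs of groups). With 1 pair of libraries per group, these correlations cannot settle whether the numbers pair libraries. With the replicate block over all 8 libraries, 3034 genes were higher, 3114 lower and 26 differed, and with the replicate block within each line 3109, 3185 and 63.

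Values of named genes reversed sign with the covariate in Bhlhe41 (-0.129), Brd3 (-0.112), mt-Nd5 (-0.1), Rn7s1 (-5.04), Rn7s2 (-4.7), Stard4 (0.0148) and Vim (-0.254). Others did with library totals in Brd3 (-0.00636), without the first JQ1 library of line 1.2 in Bhlhe41 (-0.00196, up to 0.098 with another library left out) and without its second DMSO library in Vim (-0.0186, up to 0.119). The covariate fit gives no value for Gm42418 itself. The cause was not tested. Depth limits genes near the floor of 3 reads.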
